A study of Mus musculus with 28 samples.

Results

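The genes carried by the mitochondrial genome were followed through 8 culture conditions of a mouse neural crest cell line. They are all genes of the deposited count table whose symbol starts with mt-, a rule that uses no measured value. The rule found 37 of 54429 genes, made up of 13 messenger RNA, 2 ribosomal RNA and 22 transfer RNA genes. At least 1 read was counted for 32 of them in at least 1 library.

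The study used O9-1, a single established line of mouse cranial neural crest cells, the embryonic cells that form much of the facial skeleton, and asked how low oxygen affects their differentiation. Cells were kept at 21% O2 (normoxic, 4 libraries per group) or 0.5% O2 (hypoxic, 3 libraries per group). Proliferating cells grew in DMEM conditioned by STO cells with 15% fetal calf serum, non-essential amino acids, beta-mercaptoethanol, 25 ng/ml bFGF and 5 ng/ml LIF. Osteoblast cultures spent 10 days in alpha-MEM with 10% serum, 10 mM beta-glycerophosphate, 0.1 µM dexamethasone and 100 ng/ml BMP-2. Chondrocyte cultures spent 3 days in that osteogenic medium and then 7 days as micromasses on matrigel, in alpha-MEM with 5% serum, Insulin-Transferrin-Selenium, 0.1 µM dexamethasone, 10 ng/ml TGF-beta3 and 50 ng/ml BMP-2. Smooth muscle cultures spent 3 days in DMEM with 10% serum. All media held penicillin and streptomycin, and the molecule sequenced was polyadenylated RNA, per the labels. The cultures therefore differ in medium and in duration as well as in lineage, and no label says that libraries of a group came from separate cultures, so the p-values below measure only the spread between these libraries.

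Library totals ran from 19869271 to 64693346 counts. The 3 hypoxic smooth muscle libraries stood apart from the other 25. Their scaling factors by the trimmed mean of M values (TMM) were 0.505 to 0.533, against 0.901 to 1.29 elsewhere, and their 10 most abundant genes took 27.1% to 28.5% of counts. Their smooth muscle markers also went against the label. Acta2, smooth muscle actin, averaged 20.9 CPM (reads counted relative to the TMM-scaled library total) there against 3254 in normoxic smooth muscle cultures, and Tagln averaged 13.2 against 293. The 5 smooth muscle markers listed took 0.00478% to 0.00633% of counts there and 0.451% to 0.509% in normoxic smooth muscle libraries. A list of 8 genes known to respond to low oxygen went with the label, taking 0.0936% to 0.105% of counts in hypoxic and 0.0204% to 0.0217% in normoxic smooth muscle libraries. Of 7 neural crest markers 6 had counts, and the list took group means of 0.049% (hypoxic smooth muscle) to 0.324% (normoxic smooth muscle), led by Twist1 in hypoxic smooth muscle cultures and by Prrx1 in the other 7 groups. Foxd3 had 0 counts in all 28 libraries, and Sox10 reached at most 0.0268 CPM. Every statement on hypoxic smooth muscle cultures below concerns these 3 libraries as labelled.

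The mitochondrial genome is a small circle that encodes core subunits of the respiratory chain and of ATP synthase, the ribosomal RNAs of the organelle's own ribosome and the transfer RNAs that serve it. Each strand is copied into long precursors that are cut largely at the transfer RNAs, so that genes of a strand share a precursor and their mature levels differ through processing and stability. Most of the messengers carry poly-A tails and the ribosomal RNAs short ones, whereas transfer RNAs end in CCA. Low oxygen shifts cells from respiration towards glycolysis.

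Sequence decides how far reads of a member can be assigned to it, so the relevant stretches are given first. They were read from the annotated GENCODE transcripts of the mouse GRCm38 assembly (mm10), the build that the submitters' processing notes name. A block of nuclear chromosome 1 carries a copy of the genome's segment from mt-Co2 to mt-Nd4, annotated as unprocessed pseudogenes. The copies of mt-Co2 (Gm28661), mt-Atp6 (Gm10925), mt-Co3 (Gm28437) and mt-Nd4l (Gm10222) and the copy of 876 bases of mt-Nd4 (Gm28439) had 0 differing bases over the aligned length. The start of mt-Co2 at chrM:7013-7072 is shown as an example, because the same 60 letters stand on the minus strand at chr1:24615506-24615565.
mt-Co2 and Gm28661: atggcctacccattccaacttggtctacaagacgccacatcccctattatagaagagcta
The copy of mt-Nd3, Gm28438, differed at 1 of 345 bases, T3C, counted from the 5′ end of the gene with the mitochondrial base first. The differing base is in capitals below, and the mitochondrial stretch lies at chrM:9459-9481.
mt-Nd3: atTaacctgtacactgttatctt
Gm28438: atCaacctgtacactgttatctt
Of all stretches of 100 bases, 97.6% to 99.9% in mt-Co2, mt-Atp6, mt-Co3, mt-Nd3 and mt-Nd4l recurred in another annotated transcript, as did 60.8% in mt-Nd4, 30.8% in mt-Co1 and 3.19% in mt-Nd2. The share was 0% in mt-Nd1, mt-Nd5, mt-Nd6, mt-Cytb, mt-Atp8, mt-Rnr1 and mt-Rnr2. These shares depend on the length chosen. With stretches of 50 bases they were 51.1% in mt-Co1, 8.19% in mt-Nd2, 7.61% in mt-Nd5 and 1.04% in mt-Rnr2, and still 0% in mt-Nd1, mt-Nd6, mt-Cytb, mt-Atp8 and mt-Rnr1. Only annotated transcripts were searched, so a share of 0% does not show that a gene has no copy elsewhere in the genome. This holds for mt-Atp8 too, which lies inside the copied segment. How reads that fit several places were counted is not given in the sources used here, so the counts of the first group are uncertain.

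Internal runs of A are shown for 4 genes, because the libraries were of polyadenylated RNA. The run is in capitals, with the bases on either side of it, read on the strand of the gene.
mt-Rnr2, chrM:1473-1509: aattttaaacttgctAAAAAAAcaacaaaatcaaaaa
mt-Nd2, chrM:4037-4074: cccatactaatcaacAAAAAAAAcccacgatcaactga
mt-Co1, chrM:6101-6137: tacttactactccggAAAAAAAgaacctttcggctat
mt-Nd6, chrM:13991-14023: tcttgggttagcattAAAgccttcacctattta
The longest run was 8 bases in mt-Nd2, 7 in mt-Rnr2, mt-Co1, mt-Nd4 and mt-Nd5, 5 in mt-Rnr1 and mt-Cytb and 3 in mt-Nd6. It was also 8 in the transfer RNA gene mt-Tr, which had 0 counts in all 28 libraries. mt-Nd6 is the only messenger gene of the opposite strand, and its composition differs accordingly, with 22.2% A against 36.9% in mt-Nd2. It shares 14 bases with the end of mt-Nd5 (chrM:13552-13565). The kit was stranded, but the use of strand in counting is not given in the sources used here, so reads of mt-Nd6 cannot be told apart from reads of the other strand's transcripts across the same bases. Whether A runs contributed to any count was not tested.

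Outside hypoxic smooth muscle cultures, the mitochondrial genes together took on average 0.559% to 1.21% of library counts, most of it from messengers. In hypoxic smooth muscle cultures they took 13.9% ± 0.65 (SD, n = 3), and there the ribosomal RNAs held most of it. In bulk RNA a smaller number of cells of one type and less RNA per cell cannot be told apart. Shares are described without a test because they are sums over the genes chosen.

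Messenger RNA took 0.591%, 0.518%, 0.539% and 0.484% of counts in the 4 normoxic proliferating libraries, and 0.744%, 0.693% and 0.677% in the 3 hypoxic ones. Chondrocyte cultures held 0.704%, 0.61%, 0.669% and 0.724% in normoxia and 0.601%, 0.496% and 0.452% in hypoxia. Osteoblast cultures held 1.13%, 1.31%, 1.29% and 0.925% in normoxia and 0.508%, 0.496% and 0.637% in hypoxia. The ranges of the oxygen groups did not overlap in any of these cultures, with hypoxia higher in proliferating cells and lower in chondrocyte and osteoblast cultures. Smooth muscle cultures held 0.939%, 0.947%, 0.962% and 0.935% in normoxia and 1.63%, 1.23% and 1.64% in hypoxia, again without overlap.

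Ribosomal RNA took 0.0263%, 0.0252%, 0.0268% and 0.026% of counts in normoxic and 0.0864%, 0.0817% and 0.0889% in hypoxic proliferating libraries. In chondrocyte cultures the shares were 0.0463%, 0.039%, 0.0383% and 0.0525% in normoxia and 0.0689%, 0.0516% and 0.0496% in hypoxia. In osteoblast cultures they were 0.0475%, 0.0492%, 0.0514% and 0.0297% in normoxia and 0.0854%, 0.0769% and 0.0827% in hypoxia. All 3 hypoxic libraries lay above all 4 normoxic ones in proliferating and osteoblast cultures, while the chondrocyte ranges overlapped. Normoxic smooth muscle libraries held 0.0729%, 0.0724%, 0.0719% and 0.0597%, and the hypoxic ones 11.6%, 13.3% and 12.3%.

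**Figure D1:**
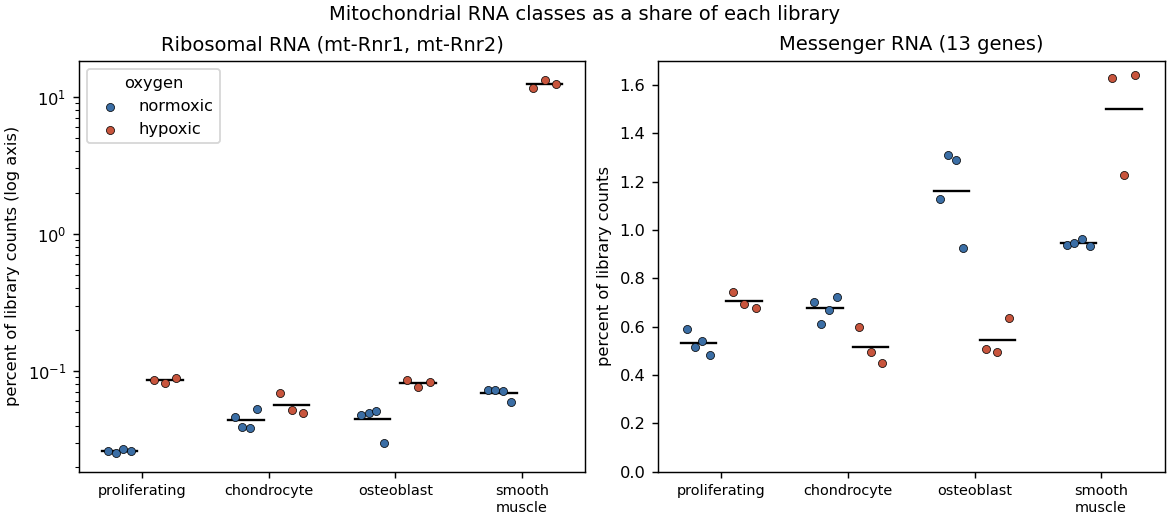
Share of library counts in percent for ribosomal RNA (log axis) and messenger RNA (linear axis from 0), with 1 point per library, lines at group means and the 4 cultures along the horizontal axis at both oxygen levels. Hypoxic smooth muscle libraries sit at 11.6% to 13.3% for ribosomal RNA, against 0.0252% to 0.0889% in all other libraries.

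The ratio of ribosomal to messenger counts uses no library scaling. It was 0.0445 to 0.0537 in normoxic and 0.116 to 0.131 in hypoxic proliferating libraries, 0.0573 to 0.0725 and 0.104 to 0.115 in chondrocyte, and 0.0321 to 0.0419 and 0.13 to 0.168 in osteoblast cultures. Hypoxic libraries lay above normoxic ones without overlap in each of these cultures. The ratio in smooth muscle cultures was 0.0776, 0.0765, 0.0748 and 0.0638 in normoxia and 7.13, 10.8 and 7.53 in hypoxia, so that ribosomal counts outnumbered messenger counts in those 3 libraries only.

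Per kilobase of gene length, messenger levels spanned more than 3 orders of magnitude. On the scale of CPM per kilobase, averaged over the 7 groups other than hypoxic smooth muscle, mt-Co1, the catalytic core of complex IV, led with 1833. It was followed by mt-Nd1 with 997, mt-Cytb, the mitochondrial subunit of complex III, with 916, mt-Nd2 with 517, mt-Nd5 with 437 and mt-Nd4 with 344. The Nd genes encode membrane subunits of complex I. The small ribosomal RNA mt-Rnr1 had 233 and the large one, mt-Rnr2, 204. mt-Nd6 had 61.2. Far lower stood mt-Co2 with 13.4, mt-Co3 with 10.5, mt-Atp6 with 8.27, mt-Nd3 with 2.39, mt-Nd4l with 2.09 and mt-Atp8 with 0.462. These last 6 genes are those wholly inside the copied segment, where mt-Atp8 lies between its neighbours and has no annotated copy of its own, and together they made up on average 0.277% to 0.483% of messenger counts per group. mt-Co2 and mt-Co3 encode the other core subunits of complex IV, and mt-Atp6 and mt-Atp8 subunits of ATP synthase.

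**Figure D2:**
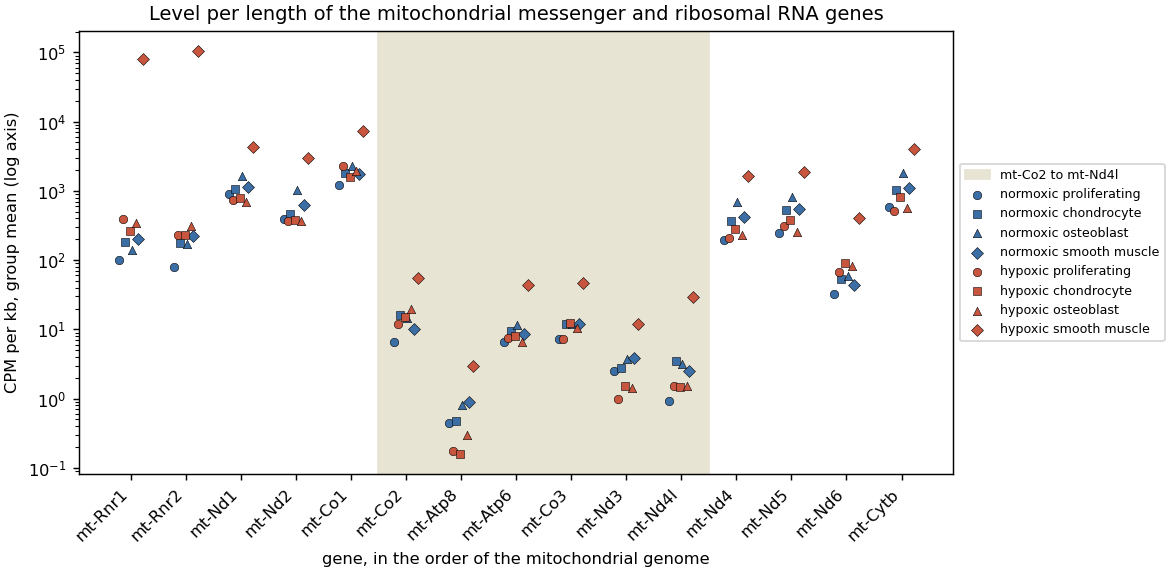
Level of each messenger and ribosomal RNA gene in CPM per kilobase (log axis) in order along the mitochondrial genome, 1 symbol per group mean, with the 6 genes from mt-Co2 to mt-Nd4l shaded. The shaded genes lie between 0.462 and 13.4 CPM per kilobase on average over 7 groups, and the messengers outside the shading between 61.2 and 1833.

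The annotated nuclear copies were counted too, and their level beside the mitochondrial gene differed between pairs. Gm28661 had 96, 147, 82 and 65 counts in normoxic proliferating libraries, where mt-Co2 had 191, 334, 132 and 109. In the hypoxic ones Gm28661 had 119, 136 and 108 counts and mt-Co2 had 244, 256 and 227. This copy was lower than the mitochondrial gene in each of these 7 libraries, whereas Gm28438 was higher than mt-Nd3 in all of them, with 180, 109 and 150 counts against 10, 9 and 11 in hypoxia. The origin of these reads, mitochondrial or nuclear, cannot be told apart where the sequence is identical.

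Low oxygen was compared with normal oxygen first in proliferating cells. The ribosomal RNAs rose most. mt-Rnr1 had 98.5, 97.7, 100.1 and 92.6 CPM in normoxic libraries and 387, 355 and 382 in hypoxic ones. mt-Rnr2 had 126 ± 3.24 CPM in normoxia (SD, n = 4, highest 130.3) and 362, 346 and 393 in hypoxia. The hypoxic values of both genes were higher in all 3 libraries, without overlap. mt-Rnr1 rose 4.01-fold (log2 fold change 2.00, SE 0.0484, adjusted p = 7.24e-13, edgeR quasi-likelihood test with Benjamini-Hochberg adjustment over all genes, used throughout), and mt-Rnr2 rose 3.04-fold (log2 1.60, SE 0.0521, adjusted p = 1.64e-11). Markers of the lineages were higher in the same hypoxic libraries, without overlap. The chondrocyte markers took 0.0123% to 0.0171% of counts in normoxia and 0.0237% to 0.0255% in hypoxia, the osteoblast markers 0.17% to 0.185% and 0.27% to 0.3%, and the smooth muscle markers 0.0112% to 0.012% and 0.0219% to 0.0225%. The adipocyte markers overlapped, with 0.000455% to 0.000501% and 0.000452% to 0.000569%. The part of these markers in the mitochondrial values was not tested.

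Of the 13 messengers, 12 passed the filter on low counts in proliferating cells. Of these, 4 were called higher and 2 lower, against 65.4% of all genes called in that comparison, 33.1% higher and 32.3% lower. mt-Co1 had 2016, 1833, 1871 and 1681 CPM in normoxia and 3704, 3434 and 3370.4 in hypoxia, a rise of 1.97-fold (log2 0.98, SE 0.0587, adjusted p = 6.44e-09). mt-Nd6 had 19.8, 16.9, 17.4 and 12.7 CPM in normoxia and 33.1, 32.9 and 38.4 in hypoxia, a rise of 2.16-fold (log2 1.11, SE 0.118, adjusted p = 3.48e-06). Neither gene's groups overlapped. mt-Nd1 moved the other way, from 959.8, 884, 886 and 779 CPM to 740.2, 679 and 701, without overlap (log2 -0.26, SE 0.062, adjusted p = 0.00239), and was described after its values were seen. mt-Nd3 had 36, 76, 26 and 18 counts in normoxia and 10, 9 and 11 in hypoxia, with a log2 difference of -1.30 (SE 0.359, adjusted p = 0.00568). When its counts were added to those of Gm28438, the sum went from -1.30 to 1.17 (adjusted p = 4.81e-05), since the copy had 64, 121, 41 and 45 counts in normoxia and 180, 109 and 150 in hypoxia. The direction for mt-Nd3 therefore depends on how reads were divided between the pair.

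Chondrocyte cultures had the smallest share of genes called between the oxygen levels. The 6 chondrocyte markers took 0.288% to 0.838% of their counts in normoxia and 0.0772% to 0.119% in hypoxia, without overlap. The 6 osteoblast markers took more, 3.46% to 4.26% and 3.9% to 4.6%, which is above every osteoblast library. The 5 smooth muscle markers took 0.207% to 0.242% and 0.172% to 0.204%, and the 5 adipocyte markers 0.00107% to 0.00159% and 0.000796% to 0.000935%. Their part in the mitochondrial values was not tested. mt-Rnr1 had 178, 152, 161 and 209 CPM in normoxia and 306, 240.2 and 212 in hypoxia. The groups did not overlap, but the lowest hypoxic and highest normoxic libraries were close. The log2 difference of 0.52 (SE 0.141) had an adjusted p = 0.0279, which was 0.0582 to 0.0726 without any 1 of normoxic replicates 1, 2 and 3 or hypoxic replicates 1 and 2, and 0.0955 without a filter. mt-Rnr2 had 285, 257, 239 and 337 CPM in normoxia and 459, 324 and 323 in hypoxia, with overlap (log2 0.39, SE 0.154, adjusted p = 0.109). It was called with DESeq2 (adjusted p = 0.032), with all 28 libraries in 1 fit (0.0444) and without normoxic replicate 4 (0.0397).

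Among the 12 messengers tested in chondrocyte cultures 1 was called higher and 5 lower, against 22.2% of all genes called, 10.4% higher and 11.8% lower. mt-Nd6 rose from 31, 27.3, 23.9 and 29.7 CPM to 51.4, 48.6 and 41.7, without overlap (1.68-fold, log2 0.75, SE 0.106, adjusted p = 0.000491). mt-Co1 had 2723, 2591, 2813 and 3042 CPM in normoxia and 3009.7, 2298 and 1989.6 in hypoxia, with overlap, and was not called. Its values between the oxygen levels in the 3 differentiated cultures were chosen after they were seen. The lowest log2 difference was that of mt-Nd4l at -1.26 (SE 0.384, adjusted p = 0.0356) from 22, 32, 29 and 33 counts to 14, 11 and 13, and its adjusted p was 0.0675 to 0.101 on leaving out any library other than normoxic replicate 1, 0.0562 with limma-voom, 0.0595 without a filter and 0.134 with all 28 libraries in 1 fit. The highest among the remaining messengers was that of mt-Co3, whose log2 difference of 0.00029 (SE 0.407) was not called. The number called lower ranged from 2 to 6 when single libraries were left out. It was 2 without normoxic replicate 3 or hypoxic replicate 3, and 3 without normoxic replicate 4 or hypoxic replicate 2.

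In osteoblast cultures both ribosomal RNAs rose, while most messengers fell. mt-Rnr1 had 139.7, 156, 154 and 85.8 CPM in normoxia and 337, 307 and 350.1 in hypoxia (2.47-fold, log2 1.31, SE 0.186, adjusted p = 0.000404). mt-Rnr2 had 298, 297, 318 and 178 CPM in normoxia and 521, 477 and 498 in hypoxia (1.83-fold, log2 0.87, SE 0.176, adjusted p = 0.00273). All hypoxic libraries were above all normoxic ones for both genes, and normoxic replicate 4 was the lowest of its group for each. Some marker lists differed between these groups as well. The 5 adipocyte markers listed took 0.000852% to 0.00131% of counts in normoxia and 0.00544% to 0.00581% in hypoxia, and the 5 smooth muscle markers 0.387% to 0.574% and 0.212% to 0.237%. The 6 osteoblast markers took 0.62% to 1.06% and 0.872% to 1.07%, with overlap. The 6 chondrocyte markers took 0.0197% to 0.155% in normoxia, where the median was 0.0213% and 1 library stood far above the others, and 0.0587% to 0.0623% in hypoxia. Each of these markers had counts in some library. The list of 7 neural crest markers, of which 6 had counts, took 0.265% to 0.331% in normoxia and 0.205% to 0.217% in hypoxia, without overlap. The part of these lists in the mitochondrial values was not tested.

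Of 12 messengers tested in osteoblast cultures, 8 fell and 1 rose, against 54.3% of all genes called, 27% higher and 27.3% lower. The 8 include mt-Nd3 (log2 -1.35, adjusted p = 0.0238), which was 0.05 (adjusted p = 0.86) with the counts of its nuclear copy added. The largest fall was that of mt-Nd5, from 1493, 1696, 1643 and 1094 CPM to 470.2, 421 and 493, which is 3.21-fold lower (log2 -1.68, SE 0.157, adjusted p = 2.75e-05). mt-Cytb, also described after its values were seen, went from 1981, 2324, 2274 and 1638 CPM to 610.2, 585 and 745 (log2 -1.67, SE 0.15, adjusted p = 2.25e-05). Neither of these genes overlapped between groups. mt-Co1 did overlap, with 3401, 3906, 3866 and 2742 CPM in normoxia and 2635, 2733 and 3722 in hypoxia, and was not called. mt-Nd6 rose from 27.8, 34.3, 33.7 and 25.8 CPM to 49, 41 and 37.5 without overlap (1.40-fold, log2 0.48, SE 0.132, adjusted p = 0.0125). That call was lost when counts were scaled by library size alone (log2 0.33, adjusted p = 0.0589) and without hypoxic replicate 1 (log2 0.37, adjusted p = 0.0555). The highest of the remaining messengers, mt-Co2, had a log2 difference of 0.42 (SE 0.188, adjusted p = 0.0882), which was 0.60 (adjusted p = 0.021) without hypoxic replicate 1.

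Scaling by library size alone moved the share of higher genes among all calls from 46.9% to 31.8% in chondrocyte and from 49.6% to 36.9% in osteoblast cultures, and messenger calls to 1 higher and 6 lower and to 0 higher and 9 lower.

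Smooth muscle cultures held the largest differences with oxygen of the 4 cultures. mt-Rnr1 had 198, 200.3, 203 and 164 CPM in normoxia and 70757, 84813 and 73974 in hypoxia. mt-Rnr2 had 374, 362, 355 and 303 CPM in normoxia and 147358, 178947 and 164801 in hypoxia. The hypoxic libraries were all higher, 418-fold for mt-Rnr1 (log2 8.71, SE 0.115, adjusted p = 2.39e-16) and 491-fold for mt-Rnr2 (log2 8.94, SE 0.114, adjusted p = 2.08e-16). Scaled by library size alone, the log2 differences were 7.33 and 7.57. Markers of other lineages were lower in these hypoxic libraries, without overlap. The 6 osteoblast markers took 0.481% to 0.759% of counts in normoxia and 0.0176% to 0.0215% in hypoxia. The 6 chondrocyte markers took 0.014% to 0.0175% and 0.00148% to 0.00201%, and the 5 adipocyte markers 0.000318% to 0.000441% and 0.000168% to 0.000232%. The part of these markers in the mitochondrial values was not tested.

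All 12 messengers tested rose in hypoxic smooth muscle cultures, against 75.6% of all genes called, 35.4% higher and 40.2% lower. mt-Co1 had 2672, 2767, 2697 and 2806 CPM in normoxia and 12167, 9551 and 11836 in hypoxia. mt-Nd6 had 24, 24.6, 21.1 and 20.6 CPM and 241, 151 and 235, which is 9.68-fold higher (log2 3.28, SE 0.139, adjusted p = 1.53e-11). Both were without overlap. The highest of the other messengers was mt-Nd4l with a log2 difference of 3.60 (SE 0.707, adjusted p = 0.000641) and 28, 210 and 30 hypoxic counts, and it was 1.77 without hypoxic replicate 2 and 2.73 with limma-voom. The lowest was mt-Nd3 with 1.69 (SE 0.336, adjusted p = 0.000332), from 47, 44, 47 and 45 counts to 44, 31 and 64.

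Those rises depend on scaling. By library size alone the median log2 difference of all genes in this comparison was -1.49 in place of -0.12, and 15.6% of called genes were higher in place of 46.8%. The 12 messengers then had differences of 0.32 to 2.20 in place of 1.69 to 3.60, with 11 called higher, and mt-Nd3 at 0.32 (adjusted p = 0.38) was not. Nuclear RNAs that carry no poly-A tail also differed in these libraries. Rn7sk, the small nuclear RNA 7SK, averaged 1397 CPM against 3.43 to 10.5 in the other groups. A list of 171 nuclear RNAs of this kind took 0.0649% to 0.0852% of counts there and at most 0.00278% in any other library. Of the 13 that passed the filter on low counts, all were called higher than in normoxic smooth muscle cultures. Of 71 replication-dependent histones 42 passed, of which 37 were called higher and 4 lower (median log2 4.32), while the list's share of counts was 0.0431% to 0.0449% in normoxia and 0.0486% to 0.0517% in hypoxia, without overlap. Of 3 genes that overlap nuclear ribosomal RNA 2 passed and both were called higher. Gm26917 had 53.1 to 61.2 CPM in normoxia and 1459.9 to 2129 in hypoxia (log2 5.05, SE 0.121, adjusted p = 2.17e-14), but the list's share, most of it from Gm42418, overlapped with 0.587% to 0.949% and 0.654% to 0.757%. The hypoxic libraries alone could carry a gene past the filter, so the genes that passed do not stand for their lists. All 7 predicted genes on nuclear copies were called higher too (median log2 2.95). The part of these RNAs in the mitochondrial values was not tested.

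**Figure D3:**
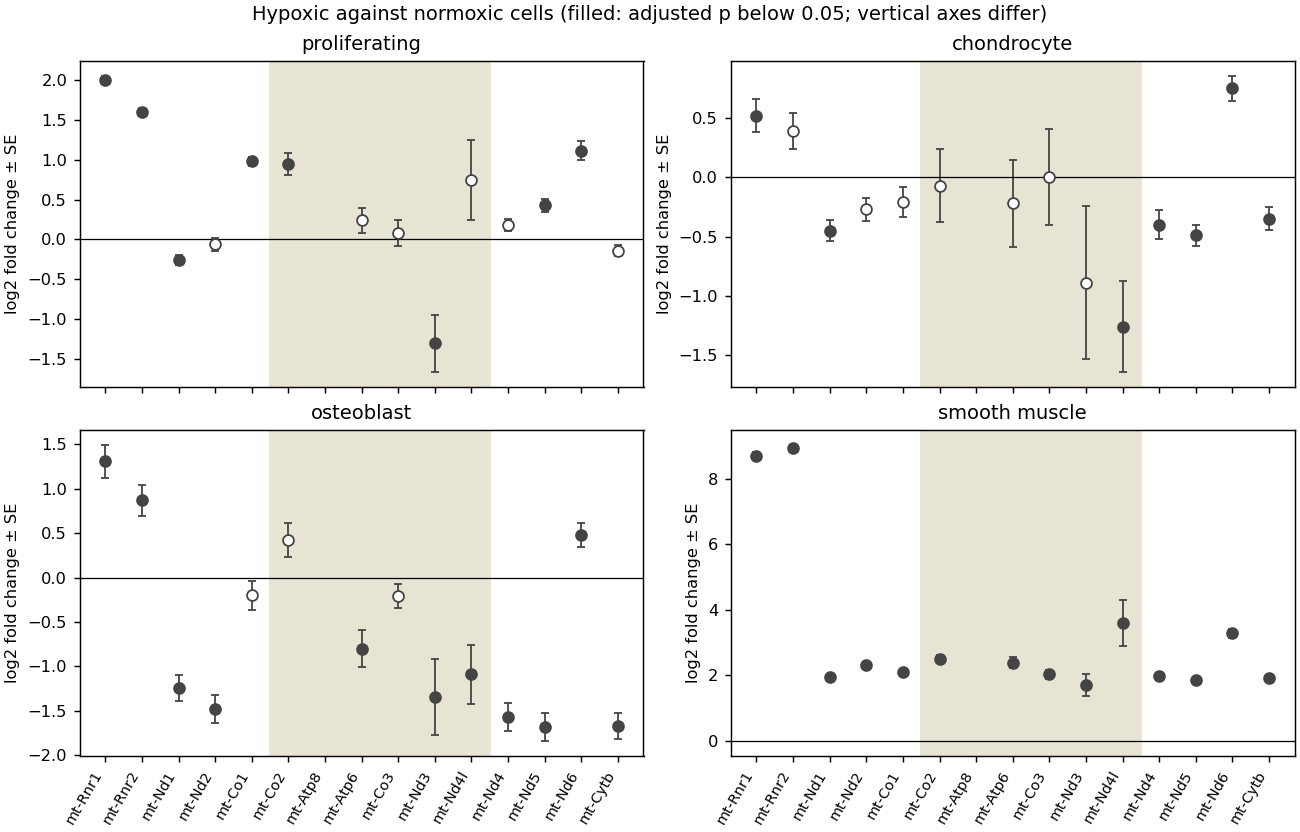
Log2 difference between hypoxic and normoxic libraries (points, filled where the adjusted p is below 0.05, with bars of 1 SE) for each tested messenger and ribosomal RNA gene in order along the genome, 1 panel per culture with its own vertical axis, and the genes from mt-Co2 to mt-Nd4l shaded. In osteoblast cultures mt-Nd5 lies at -1.68 while mt-Rnr1 lies at 1.31, and in smooth muscle cultures mt-Rnr2 reaches 8.94.

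Composition within the messengers also differed with oxygen, and these shares use no library scaling. mt-Co1 made up 40.2%, 40.5%, 40.4% and 41.5% of messenger counts in normoxic and 57.4%, 57.8% and 57.1% in hypoxic proliferating libraries. In osteoblast cultures it made up 32.6%, 32.4%, 32.7% and 33.4% in normoxia and 51.6%, 54.1% and 56.9% in hypoxia. In chondrocyte cultures the values were 38.7%, 40.4%, 40.3% and 40.4% against 45.1%, 42.3% and 40.8%. The mt-Co1 share was thus higher in every hypoxic library of these 3 cultures, by a wide margin in 2 of them. In smooth muscle cultures it was 36.3%, 37.6%, 36.2% and 38.4% in normoxia and 39.8%, 39.1% and 37.3% in hypoxia, with overlap.

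mt-Nd1 and mt-Cytb filled less of the messenger pool where mt-Co1 filled more. mt-Nd1 made up 19.1% to 19.5% of messenger counts in normoxic and 11.4% to 11.9% in hypoxic proliferating libraries, and 14.4% to 14.7% and 11.1% to 12.5% in osteoblast cultures. mt-Cytb made up 14.7% to 14.9% and 9.45% to 9.84% in proliferating, and 19% to 19.9% and 11.4% to 11.9% in osteoblast cultures. A share can fall because another gene's counts rose, so these values do not show which gene changed. Counted against the 5 genes mt-Nd1, mt-Nd2, mt-Nd4, mt-Nd5 and mt-Cytb together, mt-Co1 had 68 to 71.8 counts per 100 in normoxic and 136 to 139.8 in hypoxic proliferating libraries, and 48.2 to 50.5 and 109.9 to 136 in osteoblast cultures. Chondrocyte libraries had 63.9 to 68.9 in normoxia and 70.4 to 84.1 in hypoxia, and smooth muscle libraries 57.2 to 62.9 and 60.7 to 67.3.

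mt-Nd6 had a larger share of messenger counts in every hypoxic library than in every normoxic library of the same culture. Its share was 0.394%, 0.374%, 0.376% and 0.315% in normoxic and 0.513%, 0.553% and 0.652% in hypoxic proliferating libraries. In chondrocyte cultures it was 0.441%, 0.426%, 0.343% and 0.394% against 0.771%, 0.895% and 0.855%, and in osteoblast cultures 0.266%, 0.284%, 0.286% and 0.314% against 0.96%, 0.81% and 0.574%. For smooth muscle cultures it was 0.325%, 0.334%, 0.282% and 0.282% against 0.788%, 0.619% and 0.741%. Counted against the same 5 genes, mt-Nd6 had 0.397 to 0.728 counts per 100 in the 16 normoxic and 1.04 to 2.04 in the 12 hypoxic libraries, so that these ranges did not overlap across cultures.

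Within ribosomal RNA, mt-Rnr1 took 42.6% to 44.3% in normoxic and 49.3% to 51.7% in hypoxic proliferating libraries, and 31.9% to 34.4% and 39.2% to 41.3% in osteoblast cultures. In chondrocyte cultures the ranges of 37.1% to 40.2% and 39.6% to 42.6% overlapped. The order was the opposite in smooth muscle cultures, with 34.7% to 36.3% in normoxia and 31% to 32.4% in hypoxia.

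**Figure D4:**
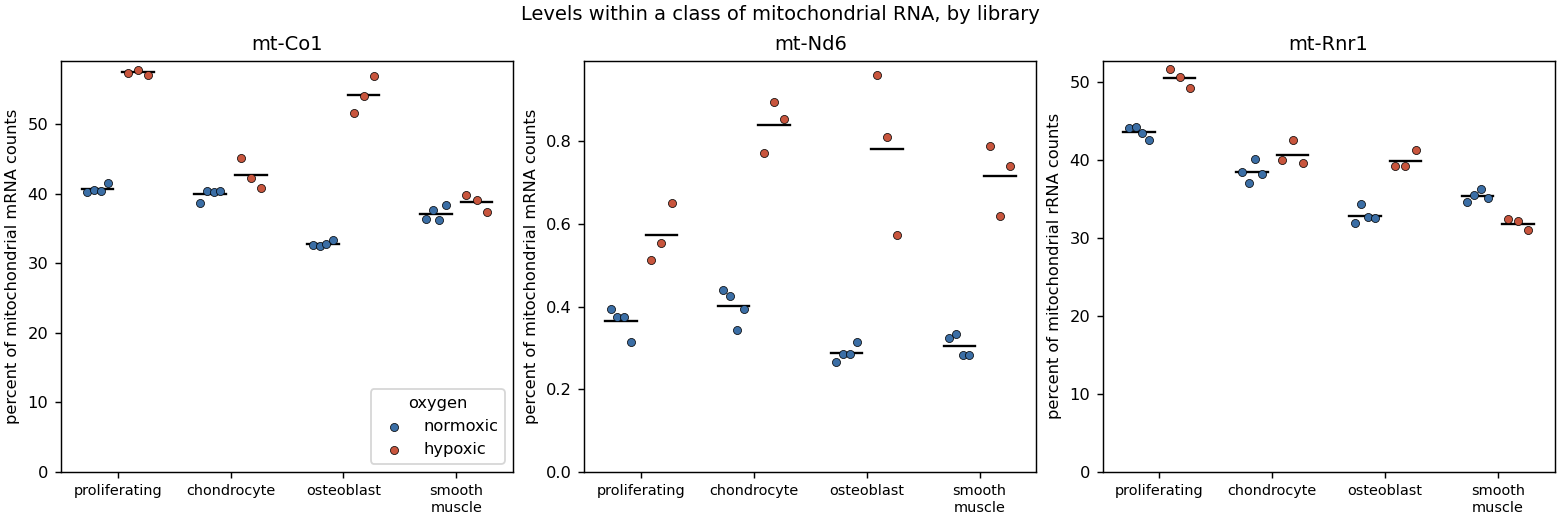
Percent of messenger RNA counts for mt-Co1 and mt-Nd6 and percent of ribosomal RNA counts for mt-Rnr1, with 1 point per library, lines at group means and vertical axes that differ between panels. The mt-Nd6 points of hypoxic libraries lie above the normoxic points of the same culture in all 4 cultures.

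The response to differentiation was compared at each oxygen level with proliferating cells. In normoxia the messengers were higher in each lineage. Of 12 tested, 11 rose and 0 fell in chondrocyte cultures, where 74.9% of all genes were called, 37.7% higher and 37.2% lower. In osteoblast cultures 11 rose and 0 fell, against 78.7% of all genes called, 40.9% higher and 37.8% lower. Normoxic smooth muscle cultures had 12 that rose and 0 that fell, against 79.7%, 40.8% higher and 38.9% lower. Scaled by library size alone, 7 were higher in chondrocyte cultures, where the median of all genes was then -0.35 in place of -0.0029 and 34.7% of called genes were higher in place of 50.3%. mt-Rnr2 rose 2.34-fold in chondrocyte (log2 1.23, SE 0.0957, adjusted p = 2.35e-07), 2.25-fold in osteoblast (log2 1.17, SE 0.157, adjusted p = 8.13e-05) and 2.88-fold in smooth muscle cultures (log2 1.52, SE 0.0653, adjusted p = 5.5e-12). mt-Rnr1 rose 1.90-fold, 1.43-fold and 2.04-fold in the same order, and its call in osteoblast cultures (adjusted p = 0.0152) was lost under library size alone (log2 0.36, adjusted p = 0.0558). mt-Nd6 rose 1.76-fold, 1.89-fold and 1.40-fold.

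Among the other messengers of the normoxic cultures, mt-Nd4 had the highest log2 difference in osteoblast cultures, from 299, 257, 274 and 232 CPM to 923, 1094, 1063 and 723 (3.72-fold, log2 1.89, SE 0.134, adjusted p = 7.39e-07). The highest difference in chondrocyte and smooth muscle cultures was that of the thinly counted mt-Nd4l, with log2 1.99 (SE 0.358, adjusted p = 0.000281) and 1.46 (SE 0.367, adjusted p = 0.00187). The lowest were mt-Nd3 in chondrocyte (log2 0.20, adjusted p = 0.593) and osteoblast cultures (log2 0.60, adjusted p = 0.123), which were 0.85 (adjusted p = 0.00076) and 0.95 (adjusted p = 0.000833) with the counts of its nuclear copy added, and mt-Nd1 in smooth muscle cultures (log2 0.38, SE 0.0611, adjusted p = 3e-05).

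In hypoxia fewer messengers were called in chondrocyte and osteoblast cultures, and the same number in smooth muscle cultures. Chondrocyte cultures had 4 higher and 1 lower, against 69.5% of all genes called, 34.9% higher and 34.6% lower. Osteoblast cultures had 3 higher and 1 lower, against 71.3%, 36.2% higher and 35.1% lower. Smooth muscle cultures had 12 higher and 0 lower, against 70%, 33.8% higher and 36.2% lower. Under library size alone the splits were 1 higher and 3 lower in chondrocyte and 1 higher and 4 lower in osteoblast cultures, where the share of higher genes among all calls went from 50.2% to 31.8% and from 50.8% to 38.2%. Without hypoxic proliferating replicate 2 or 3 the number higher in chondrocyte cultures was 2, without hypoxic proliferating replicate 1 the number higher in osteoblast cultures was 1, and without hypoxic osteoblast replicate 3 the number lower was 3. mt-Co1 was 0.690-fold its proliferating level in chondrocyte cultures (log2 -0.53, SE 0.137, adjusted p = 0.00835), and mt-Rnr1 0.670-fold (log2 -0.58, SE 0.117, adjusted p = 0.00178). mt-Rnr2 had means of 369 and 367 CPM in those groups (log2 -0.0019, SE 0.134, adjusted p = 0.991), and was called lower without hypoxic chondrocyte replicate 1 (log2 -0.18, adjusted p = 0.00909) and under library size alone (log2 -0.33, adjusted p = 0.0408). mt-Nd6 rose 1.35-fold there (log2 0.43, SE 0.093, adjusted p = 0.00102), a call lost under library size alone (log2 0.10, adjusted p = 0.325). mt-Co3, the highest of the remaining messengers, had a log2 difference of 0.71 (adjusted p = 0.118). It was called with DESeq2 (adjusted p = 0.0178), without a filter (0.0106), with all 28 libraries in 1 fit (0.0259) and without hypoxic chondrocyte replicate 3 (log2 1.05, 0.000189).

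In hypoxic osteoblast cultures mt-Rnr2 rose 1.36-fold (log2 0.44, SE 0.0681, adjusted p = 3.3e-05). mt-Co2 rose 1.60-fold (log2 0.68, SE 0.163, adjusted p = 0.00169) and mt-Nd5 fell (log2 -0.32, SE 0.0721, adjusted p = 0.00103). The calls of mt-Rnr1 (log2 -0.18, adjusted p = 0.0301) and mt-Nd6 (log2 0.28, adjusted p = 0.0261) depended on the setting. That of mt-Rnr1 was lost without hypoxic proliferating replicate 1 or 3 or hypoxic osteoblast replicate 2 (log2 -0.17 to -0.12, adjusted p = 0.0862 to 0.181) and with all 28 libraries in 1 fit (log2 -0.18, 0.311), and that of mt-Nd6 without hypoxic proliferating replicate 1 or 2 or hypoxic osteoblast replicate 1 (log2 0.17 to 0.25, adjusted p = 0.0953 to 0.12), under library size alone (log2 0.06, adjusted p = 0.655) and with all 28 libraries in 1 fit (log2 0.29, 0.108). In hypoxic smooth muscle cultures mt-Rnr2 was 485-fold and mt-Rnr1 222-fold higher than in hypoxic proliferating cells, mt-Nd6 was 6.53-fold higher and mt-Co1 3.47-fold higher, while the log2 difference of mt-Nd4l was 4.36 (adjusted p = 0.00268), or 2.53 without hypoxic smooth muscle replicate 2, and its adjusted p was 0.0581 with limma-voom and 0.0606 without a filter. Scaled by library size alone, the log2 differences there were 7.64 for mt-Rnr2 and 6.51 for mt-Rnr1, in place of 8.92 and 7.79. That of mt-Nd6 was 1.44 in place of 2.71, and that of mt-Co1 0.52 in place of 1.80. The median of all genes was then -1.35 in place of -0.07, and 15% of called genes were higher in place of 48.3%.

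Whether the oxygen difference of a gene itself differed between a lineage and proliferating cells was tested by an interaction term, the log2 difference with oxygen in the lineage minus that in proliferating cells. In chondrocyte cultures 5 of 12 messengers had a negative term that was called and 0 a positive one, against 43.5% of all genes called, 21.6% positive and 21.9% negative. Without the libraries numbered 2 or 3 the number was 3. mt-Rnr2 had -1.20 (SE 0.173, adjusted p = 5.55e-05). mt-Nd4l had -2.0 (SE 0.643, adjusted p = 0.0172), a call lost without the libraries numbered 2 (adjusted p = 0.239), and -1.27 with the counts of its nuclear copy added. In osteoblast cultures 9 of 12 messengers had a negative term and 0 a positive one, against 54.2% of all genes called, 28.9% positive and 25.3% negative. mt-Nd5 had the lowest, -2.07 (SE 0.181, adjusted p = 1.86e-07), and mt-Rnr2 had -0.69 (SE 0.195, adjusted p = 0.00775), a call lost without the libraries numbered 1, 2 or 3 (adjusted p = 0.0722 to 0.098). For smooth muscle cultures all 12 terms were positive and called, against 70.4% of all genes called, 34.9% positive and 35.5% negative. mt-Rnr2 had 7.38 (SE 0.117, adjusted p = 2.69e-21), mt-Nd3 3.03 (SE 0.496, adjusted p = 1.18e-05) and mt-Co1 1.16 (SE 0.106, adjusted p = 2.04e-09). Under library size alone mt-Co1 had -0.18 (adjusted p = 0.156), 8 of the 12 were called, and 16.6% of all calls were positive in place of 49.6%. Summed with its nuclear copy, mt-Nd3 had 0.97.

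Transfer RNA genes were thinly counted. Their 22 genes together had 39 to 192 counts per library in normoxia and 47 to 158 in hypoxia outside smooth muscle cultures. In hypoxic smooth muscle libraries they had 689, 307 and 512, against 61, 101, 118 and 99 in normoxic ones. The genes with most counts are shown with their sequence as encoded, all in lower case, with mt-Tv, the transfer RNA gene between mt-Rnr1 and mt-Rnr2, as an example of a gene without counts.
mt-Tw, chrM:4950-5016: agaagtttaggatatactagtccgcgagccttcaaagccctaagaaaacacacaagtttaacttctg
mt-Tq, chrM:3772-3842, minus strand: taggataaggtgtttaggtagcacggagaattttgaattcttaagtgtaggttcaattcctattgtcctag
mt-Tl1, chrM:2676-2750: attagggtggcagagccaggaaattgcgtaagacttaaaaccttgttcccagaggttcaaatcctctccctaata
mt-Tp, chrM:15356-15422, minus strand: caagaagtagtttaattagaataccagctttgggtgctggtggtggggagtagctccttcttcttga
mt-Tv, chrM:1025-1093: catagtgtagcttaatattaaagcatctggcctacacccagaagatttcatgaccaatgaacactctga
mt-Tw decodes tryptophan, mt-Tq glutamine, mt-Tl1 leucine, mt-Tp proline and mt-Tv valine. mt-Tf, mt-Tv, mt-Tk, mt-Tr and mt-Ts2 had 0 counts in all 28 libraries. mt-Tl1 begins where mt-Rnr2 ends, mt-Tw shares 2 bases with mt-Nd2 and mt-Tq shares 3 with mt-Ti, so a read that runs over such a border cannot be told apart from a read of the neighbour.

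Among smooth muscle cultures 7 of 22 transfer RNA genes passed the filter on low counts, which the hypoxic libraries alone could meet, so the 7 that were called higher in hypoxia do not stand for all 22, against 75.6% of all genes called in that comparison, 35.4% higher. mt-Tw had 33, 50, 27 and 35 counts in normoxia and 171, 81 and 114 in hypoxia (log2 3.39, SE 0.271, adjusted p = 2.36e-08). mt-Tl1 had 11, 8, 10 and 7 counts and 143, 64 and 114 (log2 5.19, SE 0.343, adjusted p = 2.62e-09). mt-Tq had 0, 1, 14 and 18 counts and 194, 63 and 116 (log2 5.50, SE 0.64, adjusted p = 4.11e-06). The hypoxic libraries were above the normoxic ones for each. mt-Tp had 3, 4, 12 and 8 counts against 65, 48 and 76 (log2 4.86), and mt-Tm, mt-Te and mt-Ti had log2 differences of 3.44, 3.93 and 4.32. Scaled by library size alone, the 7 differences were 2.03 to 4.15. That of mt-Ti was 6.53 in place of 4.32, and that of mt-Te 4.91 in place of 3.93, without normoxic replicate 3, and that of mt-Tq was 6.20 without normoxic replicate 4. With limma-voom mt-Ti had 5.14 and mt-Tq 6.63. Without hypoxic replicate 3, 1 transfer RNA gene was called lower.

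In the other cultures 3 or 4 transfer RNA genes were tested and 1 was called in each, against 65.4% of all genes called in proliferating, 22.2% in chondrocyte and 54.3% in osteoblast cultures. mt-Tl1 was lower in hypoxic proliferating libraries, with 2, 8 and 2 counts against 21, 50, 15 and 18 (log2 -2.03, SE 0.528, adjusted p = 0.00386), the opposite direction to mt-Rnr2 beside it. It was also lower than in normoxic proliferating cells in normoxic chondrocyte (log2 -1.66, adjusted p = 0.00169) and smooth muscle cultures (log2 -1.13, adjusted p = 0.00787). mt-Tt, the threonine transfer RNA that follows mt-Cytb, was higher in hypoxic chondrocyte libraries, with 15, 15 and 20 counts against 2, 0, 2 and 0 (adjusted p = 0.00294). mt-Tp was higher in hypoxic osteoblast libraries, with 29, 25 and 31 counts against 2, 5, 7 and 13 (log2 2.11, SE 0.483, adjusted p = 0.00506). None of these groups overlapped. Without hypoxic osteoblast replicate 1 or 3, 2 transfer RNA genes were called higher in osteoblast cultures. With at least 10 counts required in every library, none of these 3 genes was tested.

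**Figure D5:**
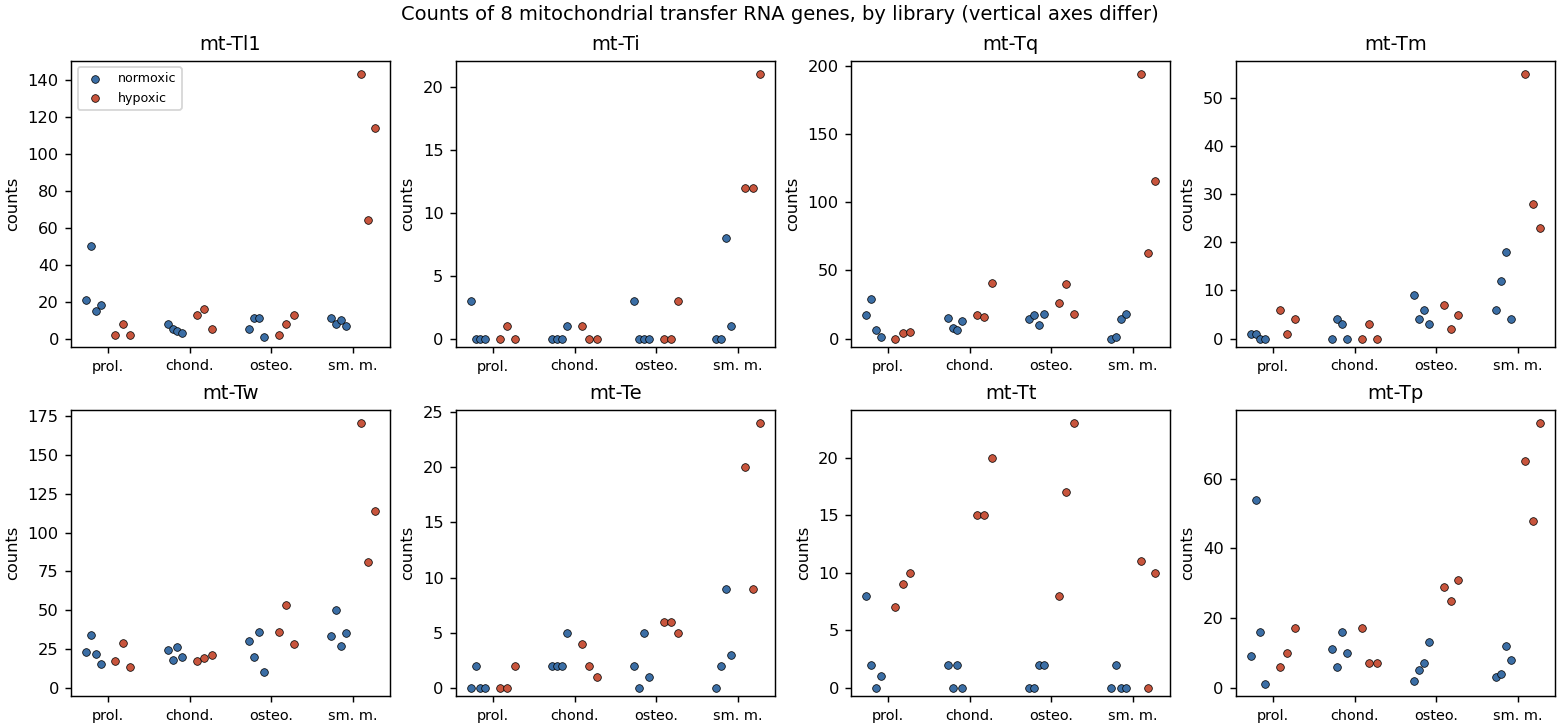
Counts of transfer RNA genes with a mean of at least 10 counts in at least 1 group, 1 point per library, with linear axes that differ between panels and the 4 cultures along the horizontal axis at both oxygen levels. The hypoxic smooth muscle points of mt-Tl1 lie at 64 to 143 and those of its normoxic counterpart at 7 to 11.

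Nuclear genes that serve the mitochondrial genome were described by lists. In proliferating cells most fell with low oxygen. Of 76 tested genes for proteins of the mitochondrial ribosome 59 fell and 4 rose (median log2 -0.52), of 76 nuclear-encoded subunits of the respiratory chain and ATP synthase 44 fell and 5 rose (median -0.20), and of 18 genes for processing and stability of mitochondrial RNA 14 fell and 3 rose (median -0.88), while the median of all genes was 0.015 and 65.4% of all genes were called, 33.1% higher and 32.3% lower. Elac2, which trims the 3′ ends of transfer RNA precursors, fell (log2 -1.60, adjusted p = 4.38e-10). Of 17 genes for transcription and DNA maintenance 9 fell and 3 rose, and of 16 for modification of ribosomal RNA and ribosome assembly 11 fell and 1 rose.

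In chondrocyte cultures 0 of the 17 transcription genes and 0 of the 18 processing genes were called, and among 76 ribosomal proteins 2 rose and 3 fell, against 22.2% of all genes called. Of 75 respiratory chain genes 6 rose and 4 fell there, and of 16 for modification and assembly 1 rose and 0 fell. In osteoblast cultures, where 54.3% of all genes were called, 27% higher and 27.3% lower, the lists did not go the same way. Of 75 respiratory chain genes 7 rose and 21 fell, of 76 ribosomal proteins 13 rose and 15 fell, of 18 processing genes 6 rose and 2 fell, and of 16 for modification and assembly 7 rose and 3 fell. Among the 17 transcription genes 7 rose and 1 fell. The largest rise was that of Mgme1, an exonuclease of mitochondrial DNA (log2 1.56, adjusted p = 1.41e-05), and the 1 that fell was Polrmt, the mitochondrial RNA polymerase (log2 -0.35, adjusted p = 0.0131). In smooth muscle cultures, where 75.6% of all genes were called, 35.4% higher and 40.2% lower, 53 of 76 ribosomal protein genes rose and 6 fell (median 0.94), and 59 of 75 respiratory chain genes rose and 7 fell (median 1.21), while 8 transcription genes rose and 9 fell (median -0.35) beside a median of -0.12 for all genes. Of 18 processing genes 7 rose and 6 fell there (median -0.08), and of 16 for modification and assembly 6 rose and 5 fell (median 0.03). With library size alone the median of all genes is -1.49, so the directions of these medians are relative to all genes. The ribosomal protein list took 0.209% to 0.233% of counts in normoxic and 0.212% to 0.229% in hypoxic smooth muscle libraries, with overlap. The respiratory chain list took 0.688% to 0.751% and 0.94% to 0.977%, without overlap. The transcription, processing and modification lists each took less of the counts in hypoxia, without overlap.

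The authors' deposited tables of the 10 pairwise comparisons gave log2 fold changes for 20 to 27 mitochondrial genes each. Of those also tested here, all had the same sign in 8 comparisons, and 17 of 18 did in the comparisons of normoxic and of hypoxic chondrocyte cultures with proliferating cells. Both sets of values come from the same libraries, so shared signs are no independent evidence.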

How the data were processed

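Polyadenylated RNA of 28 libraries in 8 groups was sequenced. The authors deposited raw read counts per gene, and the submitters' processing notes name HISAT2 2.0.5, StringTie 1.3.3b, featureCounts 1.5.0-p3 and the mm10 build. How multi-mapping reads and strand were treated is not given in the sources used here. The authors also deposited 10 comparison tables with log2 fold changes, used only for gene symbols and signs, and their 70 columns of normalised values per sample were not used. Symbols came from those tables for 27 members and from a gene name table for 10.

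Each of 10 pairs of groups was fitted on its own with edgeR 4.0.16 in R 4.3.3 (quasi-likelihood test, TMM scaling, default filter on low counts, Benjamini-Hochberg adjustment over all genes tested). A gene was called at an adjusted p below 0.05. Each of 3 interaction terms was fitted on its 4 groups. CPM used TMM scaling over all 28 libraries. The fitting code was tested on simulated data. Totals of 19869271 to 64693346 counts make counting error small for the abundant members and large for transfer RNA, mt-Nd3, mt-Nd4l and mt-Atp8.

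The rule for members uses names only, but this set of genes and the lists were chosen with earlier results of these data known. The genes named in each pairwise comparison were mt-Rnr1, mt-Rnr2, mt-Nd6 and the other messengers with the highest and the lowest log2 difference, in each interaction mt-Rnr2 and those with the highest and the lowest term, and transfer RNA genes with a mean of at least 10 counts in a group. Other genes are said to be chosen after their values were seen. Alternatives were library size alone, scaling on nuclear genes, DESeq2 1.42.0, limma-voom (limma 3.58.1), no filter, at least 10 counts in every library, a replicate block, all 28 libraries in 1 fit and leaving out each library. Summing each gene with its nuclear copy was added after the data were seen. No 2 libraries of a group agreed within sampling noise.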

Additional observations from a re-analysis of the deposited data

Results flagged for a closer look

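In 72 sets of 4 normoxic values, 4 held a library far from the other 3, where chance gives about 1 in 20. In normoxic smooth muscle cultures these were mt-Co2 in replicate 2, with 7.46 CPM against 6.65 to 6.76, mt-Rnr1 in replicate 4, with 164 CPM against 198 to 203, and the ribosomal RNA share in replicate 4, with 0.0597% against 0.0719% to 0.0729%. In normoxic osteoblast cultures it was mt-Rnr2 in replicate 4, with 178 CPM against 297 to 318.

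Of the genes named by rule in the 3 interactions, 7 pairs of gene and lineage had an oxygen difference that itself differed from that in proliferating cells, by the interaction term of edgeR's quasi-likelihood test. In chondrocyte cultures the term was -1.20 for mt-Rnr2 (adjusted p = 5.55e-05) and -2.0 for mt-Nd4l (adjusted p = 0.0172), the latter not called without the libraries numbered 2 (adjusted p = 0.239). In osteoblast cultures it was -0.69 for mt-Rnr2 (adjusted p = 0.00775), not called without the libraries numbered 1, 2 or 3 (adjusted p = 0.0722 to 0.098), and -2.07 for mt-Nd5 (adjusted p = 1.86e-07). In smooth muscle cultures it was 7.38 for mt-Rnr2 (adjusted p = 2.69e-21) and 3.03 for mt-Nd3 (adjusted p = 1.18e-05). The term of mt-Nd3 was 0.97 with the counts of its nuclear copy added and 1.7 under library size alone. For mt-Co1 the term was 1.16 (adjusted p = 2.04e-09), and -0.18 (adjusted p = 0.156) under library size alone.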

How the results depend on the processing

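With scaling on nuclear genes alone, all 66 values of named genes and all 34 counts of calls kept direction and call, or stayed within 1.5 times. That setting is TMM again with only the mitochondrial genes left out, so it could hardly differ. It does not show that the results hold under other scaling. Under library size alone, messengers called higher in normoxic chondrocyte against proliferating cultures numbered 7 (from 11), in the hypoxic pair 1 higher (from 4) and 3 lower (from 1), in hypoxic osteoblast against proliferating cultures 1 higher (from 3) and 4 lower (from 1), and in hypoxic against normoxic osteoblast cultures 0 higher (from 1). The same scaling reversed mt-Nd3 in normoxic chondrocyte against proliferating cultures to -0.14 (from 0.20), mt-Co3 in hypoxic against normoxic chondrocyte cultures to -0.08 (from 0.00029) and the smooth muscle interaction of mt-Co1 to -0.18 (from 1.16). mt-Co3 was also -0.04 with limma-voom, -0.0038 with at least 10 counts in every library and -0.16 summed with its copy. mt-Rnr2 in hypoxic chondrocyte against proliferating cultures was 0.01 with DESeq2 and with all 28 libraries in 1 fit (from -0.0019), and that fit called 1 messenger higher in the hypoxic osteoblast pair. limma-voom gave interaction terms of mt-Nd3 of -0.06 in chondrocyte (from 0.42) and 0.09 in osteoblast cultures (from -0.01). Without a filter, 2 messengers were lower in the hypoxic osteoblast pair (from 1) and 2 transfer RNA genes higher in hypoxic than in normoxic osteoblast cultures (from 1). At least 10 counts in every library left 1 messenger (from 2) and 0 transfer RNA genes (from 1) lower in hypoxic proliferating cells, 0 transfer RNA genes higher in hypoxic chondrocyte (from 1) and 1 in hypoxic smooth muscle cultures (from 7), since fewer genes were tested. Summing copies left 1 messenger lower in hypoxic proliferating cells (from 2), with mt-Nd3 at 1.17 (from -1.30) and its interaction at -1.23 in chondrocyte and -1.07 in osteoblast cultures. Over nuclear counts alone, hypoxic smooth muscle shares were 1.74% for messengers (from 1.5%) and 14.4% for ribosomal RNA (from 12.4%). Except where stated, the cause was not tested.

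With a replicate block, 4 messengers were lower in hypoxic proliferating cells (from 2) and 2 higher in hypoxic osteoblast cultures (from 1). Between the oxygen levels, the block gained the calls of mt-Rnr2 in chondrocyte (log2 0.48, adjusted p = 0.00474) and mt-Co2 in osteoblast cultures (0.32, 0.0347) and lost that of mt-Nd4l in chondrocyte cultures (-1.15, 0.115), and in smooth muscle cultures mt-Nd4l had 2.81 and mt-Tq 6.44. Correlations of same-numbered libraries were -0.057 to 0.081, so the libraries share only a number. Leaving out single libraries or replicate numbers gave values of several named genes per fit. Of these values 398 kept direction and call, 22 lost the call, 4 gained it and 11 reversed. Messengers lower in hypoxic than in normoxic chondrocyte cultures ranged from 2 to 6 and mt-Co3 from -0.27 to 0.33. Transfer RNA genes higher in hypoxic than in normoxic osteoblast cultures ranged from 1 to 2 and those lower in hypoxic than in normoxic smooth muscle cultures from 0 to 1. Messengers higher in hypoxic chondrocyte against proliferating cultures ranged from 2 to 5 and mt-Rnr2 from -0.18 to 0.09, and in the hypoxic osteoblast pair 1 to 4 were higher and 1 to 3 lower. In normoxic chondrocyte against proliferating cultures mt-Nd3 ranged from -0.05 to 0.38. In the interactions, messengers with a negative chondrocyte term ranged from 3 to 5, and mt-Nd3 from -1.22 to 0.94 in chondrocyte and from -0.09 to 0.10 in osteoblast cultures.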
